A study of Mus musculus with 12 samples.

Results

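The cell cycle and DNA replication genes described here are 40 genes that dividing cells transcribe as they copy their DNA and enter mitosis, 22 of them mitosis genes and 18 replication genes. Of these, 39 had a probe set on the array that names the gene alone, out of 18193 such genes in all: 21 mitosis genes and all 18 replication genes. Ccnb1, which encodes cyclin B1, had none and is not analysed here. Where a gene had several probe sets, the one with the highest mean over the 12 arrays was used. The list follows function and not a measured value, although earlier results of these data were known when it was drawn up.

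The samples were mouse yolk sacs, a membrane around the embryo in which its blood and vessels first form. The 4 groups of 3 arrays were Norrin yolk sacs at embryonic day 10.5 (E10.5), wild type (WT) yolk sacs at E10.5, Norrin yolk sacs at E8.5 and wild type yolk sacs at E8.5. Norrin is a secreted protein that binds the receptor Frizzled4 and activates beta-catenin signalling, and the Norrin groups came from Z/Norrin mice, which carry a conditional over-expression allele. The tissue or cell type in which the allele was switched on, and when, are not given in the sources used here. All 4 groups shared a C57Bl6/129 mixed background and held embryos of both sexes, and every array measured a separate pool of 3 to 5 yolk sacs. Values are log2 intensities, so a difference of 1 is a 2-fold change, and values of different genes are not compared because probe sets differ in brightness. In whole tissue, fewer dividing cells and less RNA per dividing cell cannot be told apart.

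A cell that commits to divide activates E2F transcription factors when cyclin D and cyclin E kinases inactivate the retinoblastoma proteins. E2F factors then switch on genes for the MCM helicase, its loaders, the sliding clamp PCNA and the enzymes that make deoxynucleotides, so that S phase can run. A later wave, driven by B-Myb and FoxM1 and repressed in resting cells by the DREAM complex, supplies the kinases, motors and checkpoint proteins of mitosis. The early yolk sac grows fast, and its primitive red cells keep dividing after they enter the circulation.

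Facts of the whole series bear on the results as follows. The yolk sac label was checked with markers, and the 11 visceral endoderm markers with a probe set averaged 12.58 to 13.30 on each array, with none below 9.56, against a median gene mean of 7.68. Ndp, the gene for Norrin, averaged 4.49 ± 0.05 in Norrin and 4.49 ± 0.06 in wild type at E10.5, and 4.54 ± 0.09 in Norrin and 4.59 ± 0.10 in wild type at E8.5 (SD, n = 3 each), so its probe set did not check the labels. Arrays of a group correlated at 0.975 to 0.992 across genes. The E8.5 arrays numbered 3 stood apart in both genotypes: their hybridisation spike-ins averaged 11.82 in Norrin and 11.85 in wild type, against 10.29 to 10.69 on the remaining 4 arrays of that stage, while the E10.5 arrays spanned 10.43 to 11.47. On these arrays 33 of 39 genes lay on the same side of their replicates 1 and 2 in both genotypes, 22 of them lower and 11 higher, and 76.2% of all genes did so. For Norrin against wild type at E8.5, the count past the threshold and the mitosis and replication medians are therefore given with and without them. Other counts of that comparison are given with them only. Arrays of the same stage shared 26 to 93 identical values and arrays of different stages shared 0, as separate normalization of each stage would give, so stage and normalization run cannot be told apart.

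**Figure D1:**
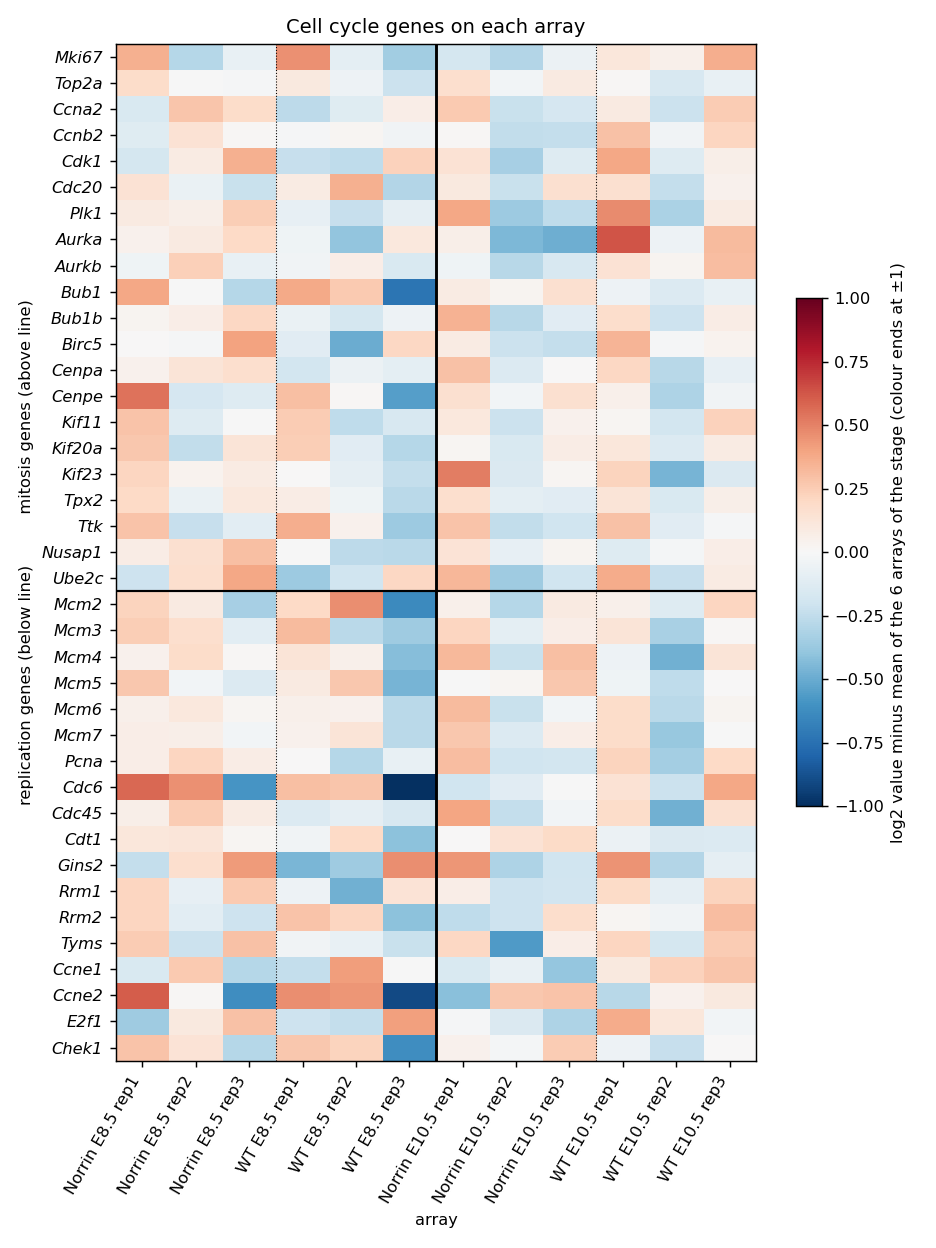
Heat map of the 39 genes (rows; mitosis genes above the black line, replication genes below it) on the 12 arrays (columns; Norrin left of wild type within E8.5 and E10.5). Colour is the log2 value minus the mean of the 6 arrays of the stage. Cdc6, Ccne2, Mcm2 and Chek1 are low on both E8.5 arrays numbered 3.

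The promoters of the mitosis and the replication genes differed in the letters they hold, a feature not read from the arrays. The genes were chosen by function, and E2F and DREAM are known regulators of these functions. The difference is therefore a description and not independent of the choice of genes. RefSeq promoter windows of build GRCm38.p6 ran from 250 bases before to 50 bases after a start site of the gene. They were found for 17 of 21 mitosis genes and 15 of 18 replication genes. The start site used is not always the outer end of the RefSeq gene. Kif20a, Aurkb, Ccna2, Tpx2, Ccne2, Gins2 and Mcm4 had no entry. The cell cycle homology region (CHR), searched as TTTGAA on both strands and known as a site of the DREAM complex, was in 13 of 17 mitosis windows (76.5%) and 2 of 15 replication windows (13.3%), against 15.7% of the 14452 genes on the array with a window. E2F letters, searched on both strands as the word TTCCCGC, the word TTGGCGC, the word TTCGCGC or the word TTGCCGC, were in 2 of 17 mitosis windows (11.8%) and 9 of 15 replication windows (60%), against 16% on the array. CCAAT, a site of the factor NF-Y, was in 15 of 17 (88.2%) and 9 of 15 (60%), against 42% on the array. Genes of the same processes outside the 39 had like shares: CHR letters were in 24 of 35 windows of other mitosis genes (68.6%), and E2F letters in 18 of 30 windows of other origin and fork genes (60%).

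**Figure D2:**
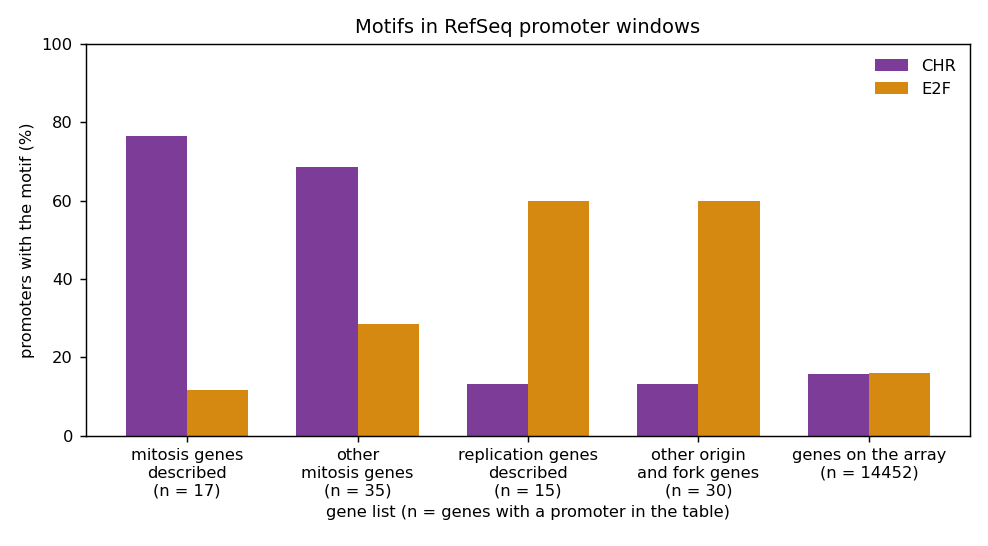
Share of RefSeq promoter windows (vertical axis, %) that hold the CHR letters (purple) or E2F letters (orange) in each gene list, with the number of windows under each list. The CHR bar is the taller one in both mitosis lists (76.5% and 68.6%) and the E2F bar in both replication lists (60% each), beside about equal bars for all genes on the array (15.7% and 16%).

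The 160 bases before the start are shown for 6 genes on which the results below turn or that show the motif types, 5′ to 3′ on the strand of the gene. Capitals mark CHR, CCAAT and E2F letters on either strand, and a longer capital run is overlapping E2F letters on both strands.
Aurka, chr2:172370571-172370730, minus strand: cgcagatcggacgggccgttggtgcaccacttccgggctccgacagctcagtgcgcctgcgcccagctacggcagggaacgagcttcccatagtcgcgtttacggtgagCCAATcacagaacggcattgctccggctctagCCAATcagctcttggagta
Top2a, chr11:99024190-99024349, minus strand: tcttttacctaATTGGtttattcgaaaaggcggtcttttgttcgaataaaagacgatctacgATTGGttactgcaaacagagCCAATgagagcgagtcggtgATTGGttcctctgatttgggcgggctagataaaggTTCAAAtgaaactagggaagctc
Cdk1, chr10:69352913-69353072, minus strand: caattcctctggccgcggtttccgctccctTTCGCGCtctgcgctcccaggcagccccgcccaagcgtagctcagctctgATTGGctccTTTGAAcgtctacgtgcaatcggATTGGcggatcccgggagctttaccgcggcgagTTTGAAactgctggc
Mcm6, chr1:128359706-128359865, minus strand: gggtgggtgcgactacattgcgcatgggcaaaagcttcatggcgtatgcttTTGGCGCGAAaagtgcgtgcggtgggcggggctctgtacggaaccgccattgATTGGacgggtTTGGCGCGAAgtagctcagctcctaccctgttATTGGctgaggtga
Rrm1, chr7:102441535-102441694, plus strand: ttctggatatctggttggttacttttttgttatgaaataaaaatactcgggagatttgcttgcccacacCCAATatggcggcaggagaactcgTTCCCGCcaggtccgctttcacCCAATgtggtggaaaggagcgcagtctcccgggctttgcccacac
Ccne1, chr7:38107491-38107650, minus strand: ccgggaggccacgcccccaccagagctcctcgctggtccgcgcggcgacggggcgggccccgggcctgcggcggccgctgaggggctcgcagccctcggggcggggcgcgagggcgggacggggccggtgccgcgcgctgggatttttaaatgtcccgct
Top2a and Cdk1 carry CHR letters at positions -23 and -15 from the start, downstream of CCAAT boxes. The CHR letters of Aurka lie 33 bases after the start used, outside the stretch shown. That start lies within the RefSeq gene, whose span reaches 172370886, so the Aurka stretch shown is inside that span. Mcm6 has overlapping E2F letters at -109 and -46, and Rrm1 has TTCCCGC at -67 between its CCAAT boxes. The Ccne1 stretch holds none of the letters searched, which says nothing about the factors that bind it.

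In Norrin yolk sacs at E8.5 no mitosis or replication gene passed the threshold, although most values lay above those of wild type. None of the 39 genes passed an adjusted p of 0.05 in limma (Benjamini-Hochberg over 18193 genes), where 0.0770% of all genes did (0.0550% higher and 0.0220% lower). At an unadjusted p under 0.05 there was 1 gene, Nusap1, against 7.22% of all genes. The differences, Norrin minus wild type, ran between -0.12 and 0.36, with 32 genes above 0 and 7 below, where 46.1% of all genes lay above 0. Their median was 0.16 for mitosis genes and 0.14 for replication genes, against -0.02 for all genes. In 7 genes all 3 Norrin arrays were above all 3 wild type arrays and in 0 genes below, where 5.89% and 6.02% of all genes were so placed. The 95% intervals of 38 of the 39 genes lay within a 2-fold change either way.

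Among the mitosis genes, the largest difference was in Nusap1, a protein that bundles spindle microtubules. Nusap1 read 9.82, 9.91 and 10.05 in Norrin yolk sacs at E8.5, against 9.75, 9.49 and 9.48 in wild type. Every Norrin array was above every wild type array, and the difference was 0.36 (SE 0.12, adjusted p = 0.559, 1.28-fold). The other probe set of Nusap1, at a mean of 5.81, went the opposite way, at -0.28. Plk1, the kinase that drives entry into mitosis and spindle assembly, read 10.75, 10.72 and 10.91 in Norrin, against 10.58, 10.43 and 10.57 in wild type. The Plk1 groups did not overlap either, with a difference of 0.26 (SE 0.21, adjusted p = 0.779). Birc5 encodes survivin, a protein found at the inner centromere that helps to place Aurora B. It read 11.53, 11.52 and 11.93 in Norrin, against 11.42, 11.03 and 11.74 in wild type. Its groups overlapped, replicate 3 was the highest array of each, and the difference was 0.26 (SE 0.19, adjusted p = 0.751), or 0.083 without wild type replicate 2 and 0.43 without wild type replicate 3. The checkpoint kinase gene Bub1b, the centromeric histone gene Cenpa and Kif23, a motor of cytokinesis, had groups that did not overlap, with differences of 0.20, 0.23 and 0.22. Mki67, the gene for the proliferation marker Ki-67, averaged 11.60 ± 0.33 in Norrin and 11.61 ± 0.41 in wild type (SD, n = 3 each).

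Among the replication genes, Cdc6, which loads the MCM helicase onto origins, had the largest difference, with a wide spread. Cdc6 read 10.38, 10.27 and 9.21 in Norrin yolk sacs at E8.5, against 10.11, 10.09 and 8.79 in wild type. Replicate 3 was far below the others in both genotypes, and the difference was 0.29 (SE 0.36, adjusted p = 0.856). It was -0.14 without wild type replicate 3 and 0.66 without Norrin replicate 3. Among replicates 1 and 2 alone, both Norrin arrays were above both wild type arrays. Cdc45, a subunit of the active helicase, read 9.09, 9.28 and 9.11 in Norrin, against 8.89, 8.94 and 8.86 in wild type. These groups did not overlap, with a difference of 0.26 (SE 0.19, adjusted p = 0.758), and Pcna, the sliding clamp, was the other replication gene so placed (0.24). Rrm1, the large subunit of ribonucleotide reductase, read 11.74, 11.44 and 11.78 in Norrin, against 11.48, 11.05 and 11.66 in wild type. Its groups overlapped, with replicate 2 lowest in both, and the difference was 0.26 (SE 0.17, adjusted p = 0.742), or 0.085 without wild type replicate 2 and 0.39 without wild type replicate 3. The helicase genes Mcm2 to Mcm7 differed by -0.02 to 0.21 on the probe sets used. Their other probe sets above the median gene mean ran from -0.04 (Mcm4) to 0.37 (Mcm3). The S phase cyclin genes Ccne1 and Ccne2 differed by -0.12 and less than 0.01 in size.

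The E8.5 counts depended on how arrays were weighted. With the replicate number as a block, 0 of the 39 genes passed, against 1.41% of all genes (0.803% higher and 0.610% lower). The medians depended on wild type replicate 3, and without it they were 0.066 for mitosis genes and -0.0037 for replication genes. Without both arrays numbered 3, 0 genes passed and the medians were 0.083 and 0.033. With quality weights for arrays, 12 rose and 1 fell, where 5147 of 18193 genes passed; those weights were 8.03 for Norrin replicate 2 and 5.14 for wild type replicate 2, and 0.22 to 0.45 for the other 4 arrays of the stage. These replicates 2 also had the highest 3′ over 5′ difference of the control gene Gapdh, 0.50 in Norrin and 0.61 in wild type, against 0.02 to 0.15 on the other arrays. Markers of other cells stood beside this: parietal endoderm markers averaged 11.02 to 11.39 on the Norrin arrays and 10.57 to 10.98 on the wild type arrays, with 0 of 7 past the threshold, and visceral endoderm markers averaged 12.58 to 12.86 in Norrin and 13.02 to 13.12 in wild type, with 1 of 11 lower (Apoa4, -1.18, adjusted p = 0.0449) and 3 lower with the block. Erythroid markers averaged 11.62 to 11.91 in Norrin and 11.85 to 11.99 in wild type, with 0 of 7 past the threshold. Trophoblast markers averaged 7.82 on Norrin replicate 2, the array of the highest weight, above both other Norrin arrays (6.65 on replicate 1) and above the 6.79 to 7.09 of wild type. The mesenchyme marker Pdgfra was 1.54 above wild type (adjusted p = 0.171, and 0.0305 with the block). Of the 6 mesenchyme markers, though, 3 lay above 0 and 3 below, with a median of 0.07. The decidua marker Bmp2 was 0.99 above wild type (adjusted p = 0.716, and 0.0341 with the block). Of the 6 decidua markers 4 lay above 0 and 2 below, with a median of 0.29. The part of these cells in the E8.5 values was not tested.

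**Figure D3:**
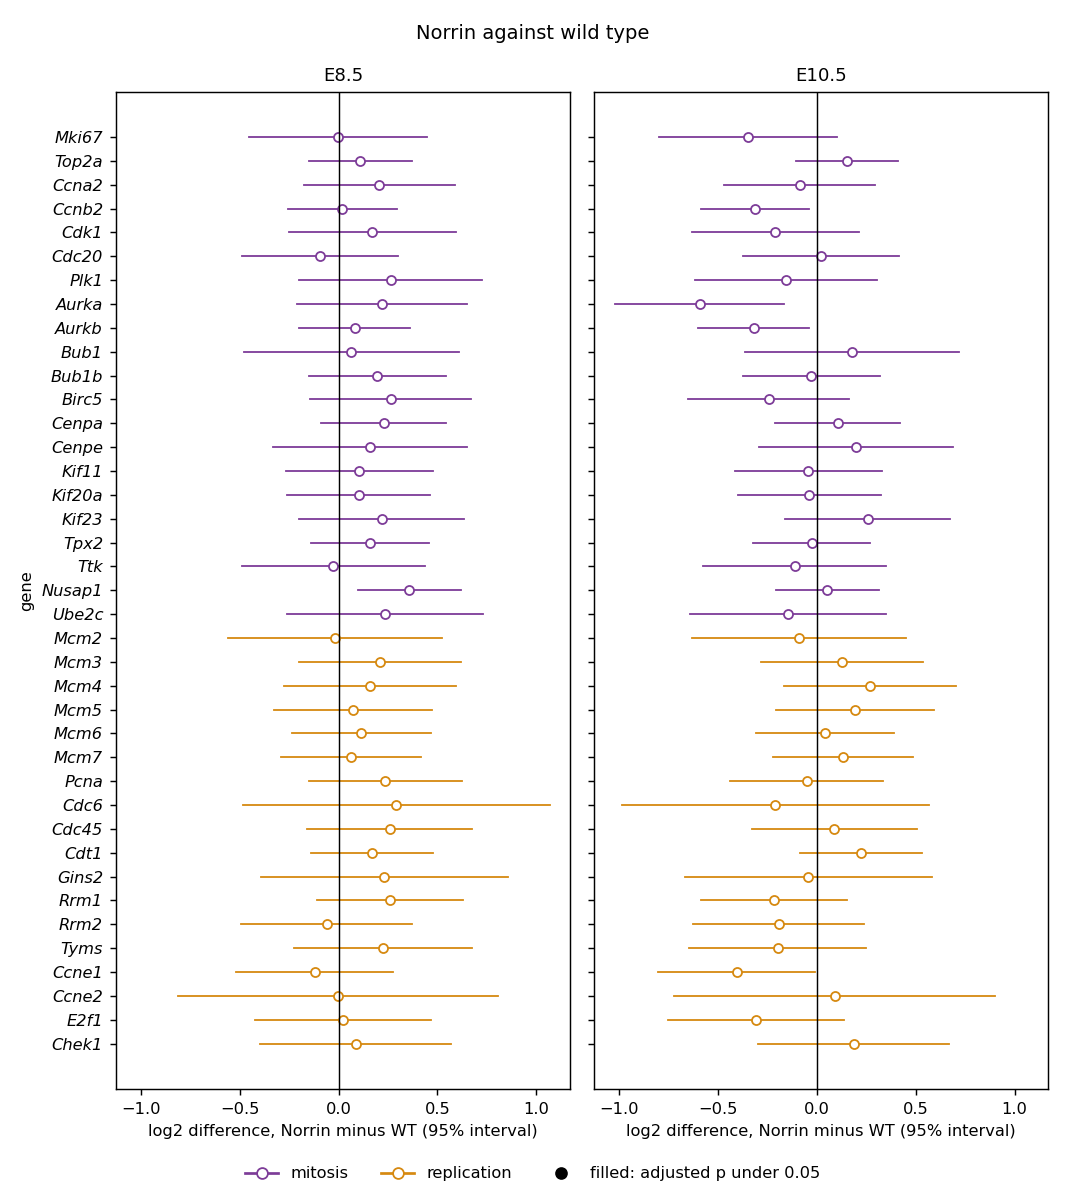
Difference Norrin minus wild type (horizontal axis, log2, with 95% interval) for the 39 genes, at E8.5 on the left and at E10.5 on the right, with mitosis genes in purple and replication genes in orange. No point is filled, since none passed the threshold; at E8.5 32 points lie right of 0, and at E10.5 Aurka lies farthest left.

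At E10.5 the values split by gene rather than leaning one way, and the lowest in Norrin relative to wild type were the Aurora kinase genes Aurka and Aurkb, Mki67 and the cyclin genes Ccne1 and Ccnb2. None of the 39 genes passed the threshold, where 4.07% of all genes did (1.85% higher and 2.22% lower). At an unadjusted p under 0.05 there were 4, Aurka, Aurkb, Ccnb2 and Ccne1, all lower in Norrin, where 14.0% of all genes were under it in either direction. Differences ran between -0.59 and 0.27, with 16 genes above 0 and 23 below, where 49.0% of all genes lay above 0. The median was -0.04 for mitosis genes (-0.21 without Norrin replicate 1) and less than 0.01 in size for replication genes, and less than 0.01 for all genes. Groups did not overlap in 2 genes that were higher in Norrin and 3 that were lower, where 11.4% and 11.5% of all genes were so placed. The replicate number was also fitted as a block, a pairing drawn from these same values. With it 3 genes fell (Aurka, Aurkb and Ccne1) and 0 rose, where 6.80% and 6.39% of all genes did (13.2% in all). The share of the 39 that fell was thus near that of all genes.

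Aurka encodes the kinase that matures centrosomes and builds the spindle poles. Aurka read 10.42, 9.92 and 9.88 in Norrin yolk sacs at E10.5, against 11.00, 10.32 and 10.68 in wild type. Norrin replicate 1 was above wild type replicate 2, so the groups overlapped, but each Norrin array was below the wild type array of its own number. The difference was -0.59 (SE 0.20, 1.51-fold lower), with an adjusted p of 0.147, and 0.0106 with the block. It was -0.43 without wild type replicate 1 and -0.77 without Norrin replicate 1. Aurkb, the kinase of the chromosomal passenger complex, read 9.55, 9.32 and 9.44 in Norrin, against 9.74, 9.62 and 9.90 in wild type. Every Norrin array was below every wild type array, with a difference of -0.32 (SE 0.13, adjusted p = 0.263, and 0.0491 with the block). A dimmer probe set of Aurkb gave -0.29, while the other probe set of Aurka, at a mean of 5.37, gave 0.03.

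Mki67 and Ccnb2 also read low in Norrin. Mki67 read 11.51, 11.39 and 11.62 in Norrin yolk sacs at E10.5, against 11.79, 11.73 and 12.04 in wild type. These groups did not overlap, and the difference was -0.35 (SE 0.21, adjusted p = 0.542, and 0.0615 with the block). Ccnb2, which encodes cyclin B2, a partner of Cdk1, read 10.52, 10.26 and 10.27 in Norrin, against 10.79, 10.47 and 10.72 in wild type. Only Norrin replicate 1 and wild type replicate 2 overlapped, with a difference of -0.31 (SE 0.13, adjusted p = 0.264, and 0.0554 with the block). Bub1, a kinase of the spindle checkpoint, was the mitosis gene whose Norrin arrays all lay above wild type (0.18, SE 0.25), and Kif23 had the largest positive difference (0.26, SE 0.19). Top2a, the topoisomerase that untangles chromosomes, differed by 0.15 and Cdk1, the kinase of mitotic entry, by -0.21.

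Among replication genes at E10.5, the cyclin E gene Ccne1 was lowest and the helicase gene Mcm4 highest in Norrin relative to wild type. Ccne1, whose cyclin starts S phase with Cdk2, read 9.72, 9.80 and 9.48 in Norrin, against 9.97, 10.10 and 10.15 in wild type. Every Norrin array was below every wild type array, and the difference was -0.41 (SE 0.18, adjusted p = 0.337, and 0.0457 with the block). Its other probe set gave -0.53. E2f1, an activator of S phase genes, read 9.03, 8.89 and 8.73 in Norrin, against 9.41, 9.15 and 9.01 in wild type. Only Norrin replicate 1 and wild type replicate 3 overlapped, with a difference of -0.31 (SE 0.20, adjusted p = 0.624). Mcm4 read 10.97, 10.42 and 10.95 in Norrin, against 10.59, 10.17 and 10.77 in wild type. Replicate 2 was lowest in both genotypes, and the difference was 0.27 (SE 0.20, adjusted p = 0.688), or 0.097 without wild type replicate 2 and 0.45 without Norrin replicate 2. Cdt1, which loads the helicase together with Cdc6, was the replication gene whose Norrin arrays all lay above wild type (0.23, SE 0.14). The other MCM genes differed by -0.09 to 0.19 on the probe sets used. Their further probe sets above the median gene mean ran from -0.28 (Mcm2) to 0.22 (Mcm7). The nucleotide synthesis genes Rrm1, Rrm2 and Tyms differed by -0.22, -0.19 and -0.20. Other probe sets of Rrm1 and Rrm2 gave -0.32 to -0.10. The Tyms probe set was dim, at a mean of 6.67, and its other probe sets, dimmer still, gave -0.11 to 0.20.

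In the lists around the 39 genes, single genes passed the threshold at E10.5, where 4.07% of all genes did (1.85% higher and 2.22% lower). The share that passed over these lists together was near that of all genes. Of 7 CDK inhibitors 1 fell in Norrin: Cdkn2c, which encodes p18 and blocks Cdk4 and Cdk6, read 8.49, 8.56 and 8.66 in Norrin, against 9.25, 9.25 and 9.34 in wild type (difference -0.71, SE 0.13, adjusted p = 0.0079). Of 12 G1 cyclins, CDKs and pocket proteins 1 rose: Mycn, a Myc family factor, read 10.21, 10.09 and 10.13 in Norrin, against 8.78, 9.07 and 9.05 in wild type (1.18, SE 0.25, adjusted p = 0.0191). In both genes the groups lay far apart. Of 13 other E2F, DREAM and B-Myb factors, E2f2 fell (-0.93, SE 0.21, adjusted p = 0.0275) and Tfdp2, a partner of E2F proteins, rose (0.68, SE 0.13, adjusted p = 0.0145). Of 40 other mitosis genes 1 fell, Cdc25b, the phosphatase that switches on Cdk1 (-0.90, SE 0.18, adjusted p = 0.0149). Of 13 DNA damage and checkpoint genes 1 rose, Wee1, the kinase that holds Cdk1 off (0.69, SE 0.17, adjusted p = 0.0471). Of 37 other origin and fork genes 0 passed, and the largest difference was -0.42 for the thymidine kinase gene Tk1 (SE 0.31, adjusted p = 0.687). With the block, 2 rose and 1 fell among the CDK inhibitors, and 2 rose and 3 fell among the E2F, DREAM and B-Myb factors. In that fit 2 rose among origin and fork genes and 5 fell among other mitosis genes. Among DNA damage and checkpoint genes 1 rose and 1 fell. Of all genes 6.39% rose and 6.80% fell with the block (13.2% in all).

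At E8.5 none of these lists had a gene past the threshold. Values of the other origin and fork genes lay above 0 in 35 of 37, with a median of 0.21, where 46.1% of all genes lay above 0. The largest differences were 0.37 for the CDK inhibitor Cdkn1a (p21), 0.37 for the kinase gene Cdk6 and -0.35 for Mybl2, which encodes B-Myb. They were 0.65 for Rfc3 of the clamp loader, 0.62 for Pttg1, the separase inhibitor securin, and 0.49 for Wee1. With the block Pttg1 rose (adjusted p = 0.0305, against 0.228 without it), and so did Rpa3 of the single-strand binding complex RPA (0.44, adjusted p = 0.0494, against 0.439 without it).

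Cell type markers moved at E10.5 beside these genes, where 1.85% of all genes were higher in Norrin and 2.22% lower. Erythroid markers were lower in Norrin in 4 of 7, Klf1 (-1.83), Alas2 (-1.64), Hbb-bh1 (-0.58) and Hba-x (-0.57), and the list averaged 10.78 to 10.92 on the Norrin arrays and 11.43 to 12.24 on the wild type arrays. Visceral endoderm markers were lower in 3 of 11 (12.76 to 12.84 in Norrin, 13.14 to 13.30 in wild type). Parietal endoderm markers were higher in 3 of 7, Pth1r (2.45), Col4a2 (1.23) and Col4a1 (0.62), and averaged 11.66 to 11.76 in Norrin and 10.80 to 10.92 in wild type. Of 6 trophoblast markers 0 passed, but their mean was 9.83 on Norrin replicate 2, against 7.69 and 7.70 on the other Norrin arrays and 7.07 to 7.66 in wild type. Endothelial, macrophage and embryo neural markers had 0 past the threshold. Of 6 mesenchyme markers 1 was higher in Norrin, Pdgfra (1.89), and of 6 decidua markers 1, Wnt4 (1.00). With the block, 6 erythroid and 6 visceral endoderm markers were lower, where 6.80% of all genes were. In that fit 6 parietal endoderm, 3 decidua, 2 mesenchyme, 1 endothelial and 1 embryo neural markers were higher, where 6.39% of all genes were. The part of these cells in the Aurka, Aurkb, Ccne1 and Mki67 values was not tested.

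The effect of Norrin was also compared between the stages. Of the 39 genes 0 passed this interaction test, where 0.0934% of all genes did (0.0385% higher and 0.0550% lower). A lower Norrin effect at E10.5 than at E8.5 was seen in 28 genes and a higher one in 11, where 54.3% of all genes were higher. At an unadjusted p under 0.05 there were Aurka (-0.81, SE 0.28, adjusted p = 0.452) and Aurkb (-0.40, SE 0.18, adjusted p = 0.707), against 7.01% of all genes. The median was -0.22 for mitosis genes and -0.11 for replication genes, against 0.03 for all genes. Leaving out each array in turn gave -0.34 to -0.14 for mitosis genes and -0.21 to 0.038 for replication genes, the last without wild type E8.5 replicate 3. With the block 1 gene passed, Aurka (adjusted p = 0.0430), where 2.07% of all genes did (0.819% higher and 1.25% lower). For 31 of the 39 genes the 95% interval lay within a 2-fold change either way.

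**Figure D4:**
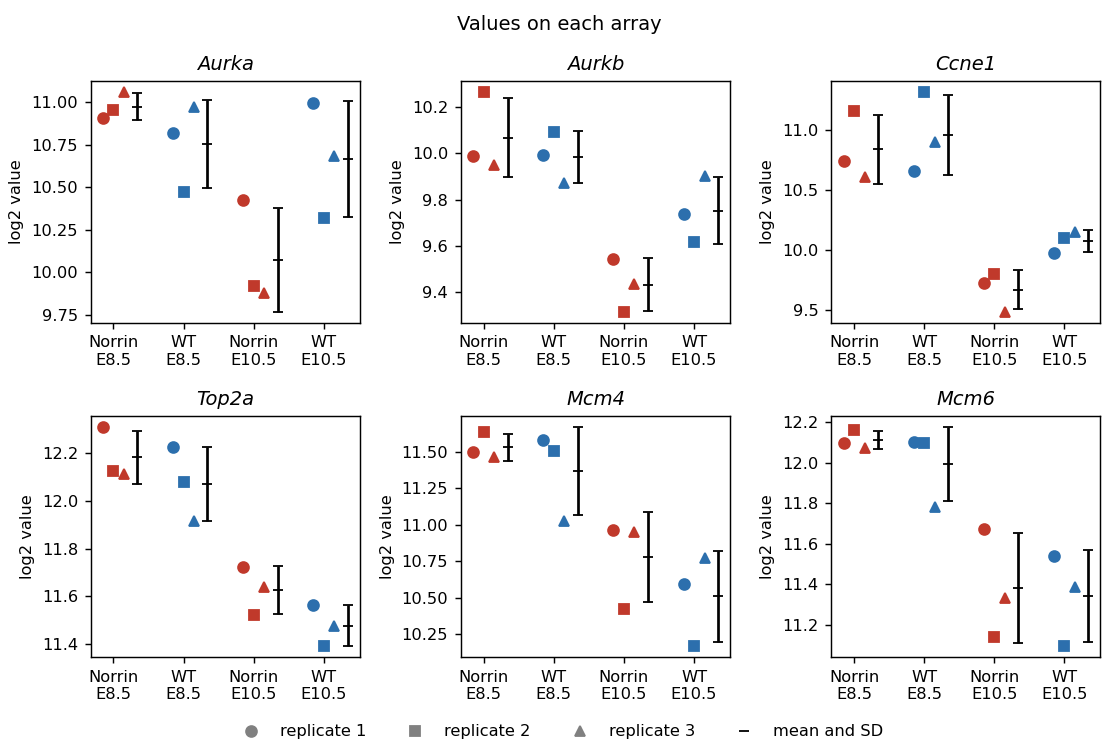
Log2 values (vertical axes) of Aurka, Aurkb, Ccne1, Top2a, Mcm4 and Mcm6 on each array, with Norrin in red left of wild type in blue at each stage, symbols for the replicate numbers and black bars for mean and SD (n = 3). Aurka and Aurkb are lowest in Norrin at E10.5, while Top2a, Mcm4 and Mcm6 are lower at E10.5 than at E8.5 in both genotypes.

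Between stages, most of the 39 genes did not pass the threshold in wild type yolk sacs, and those that were lower at E10.5 than at E8.5 included the cyclin E gene Ccne1 and 4 subunits of the MCM helicase. Of 18 replication genes 5 fell and 0 rose: Mcm3, Mcm4, Mcm5, Mcm6 and Ccne1. Of 21 mitosis genes 1 fell, Top2a, and 1 rose, Nusap1. In all, 1 gene rose and 6 fell, where 25.4% and 7.12% of all genes did (32.5% in all). With all probe sets of a gene averaged, 1 rose and 1 fell. The median difference was -0.32 for replication genes and -0.13 for mitosis genes (0.027 without wild type E10.5 replicate 2), and all genes had a median of 0.14, with 33 of the 39 genes below that. Centring each array on its median moved the median of all genes to -0.14, and then 0 genes rose and 15 fell. Groups did not overlap in 7 lower and 2 higher genes, where 11.2% and 32.7% of all genes were so placed.

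Mcm4, a subunit of the ring that unwinds DNA at the fork, read 10.59, 10.17 and 10.77 in wild type at E10.5, against 11.58, 11.50 and 11.02 at E8.5. All E10.5 arrays were below all E8.5 arrays, and the difference was -0.86 (SE 0.20, adjusted p = 0.00634, 1.81-fold lower). Its other probe set gave -0.72, and the mean of both gave -0.79 with an adjusted p of 0.0634, which ends the call. Ccne1 read 9.97, 10.10 and 10.15 at E10.5, against 10.66, 11.31 and 10.89 at E8.5. The difference was -0.88 (SE 0.18, adjusted p = 0.00308, 1.84-fold lower), and -0.39 (adjusted p = 0.251) for the other probe set, which ends the call. Mcm6 fell by 0.66 (SE 0.16, adjusted p = 0.0085), Mcm3 by 0.64 (SE 0.19, adjusted p = 0.0214) and Mcm5 by 0.57 (SE 0.18, adjusted p = 0.0329). The remaining helicase genes did not pass, Mcm7 at -0.39 (adjusted p = 0.0897) and Mcm2 at -0.30 (adjusted p = 0.388). Mcm6 is shown above with its E2F letters, and so is Ccne1 with none.

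Top2a read 11.56, 11.39 and 11.47 in wild type at E10.5, against 12.22, 12.08 and 11.91 at E8.5. These groups did not overlap, and the difference was -0.60 (SE 0.12, adjusted p = 0.00254, 1.51-fold lower). The other probe sets of Top2a went the opposite way, at 0.41 and 0.68, so the fall rests on its brightest probe set. Ccna2, which encodes cyclin A2, read 11.40, 11.10 and 11.56 at E10.5, against 11.66, 11.80 and 11.99 at E8.5. All E10.5 arrays were lower, with a difference of -0.46 (SE 0.18, adjusted p = 0.0612). Nusap1 read 10.04, 10.14 and 10.23 at E10.5, against 9.75, 9.49 and 9.48 at E8.5. It rose by 0.56 (SE 0.12, adjusted p = 0.00381), but with arrays centred on their median the difference was 0.28 (adjusted p = 0.0912), and its other probe set gave -0.49. Birc5 differed by 0.50 (SE 0.19, adjusted p = 0.0609) and E2f1 by 0.50 (SE 0.20, adjusted p = 0.0797), both short of the threshold. Chek1, the kinase of the replication checkpoint, differed by 0.16 (SE 0.22, adjusted p = 0.61) and turned to -0.12 with centred arrays and to -0.12 without wild type E8.5 replicate 3.

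Leaving out wild type E8.5 replicate 3 gave 3 higher and 10 lower, and leaving out both E8.5 arrays numbered 3 gave 3 higher and 12 lower.

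**Figure D5:**
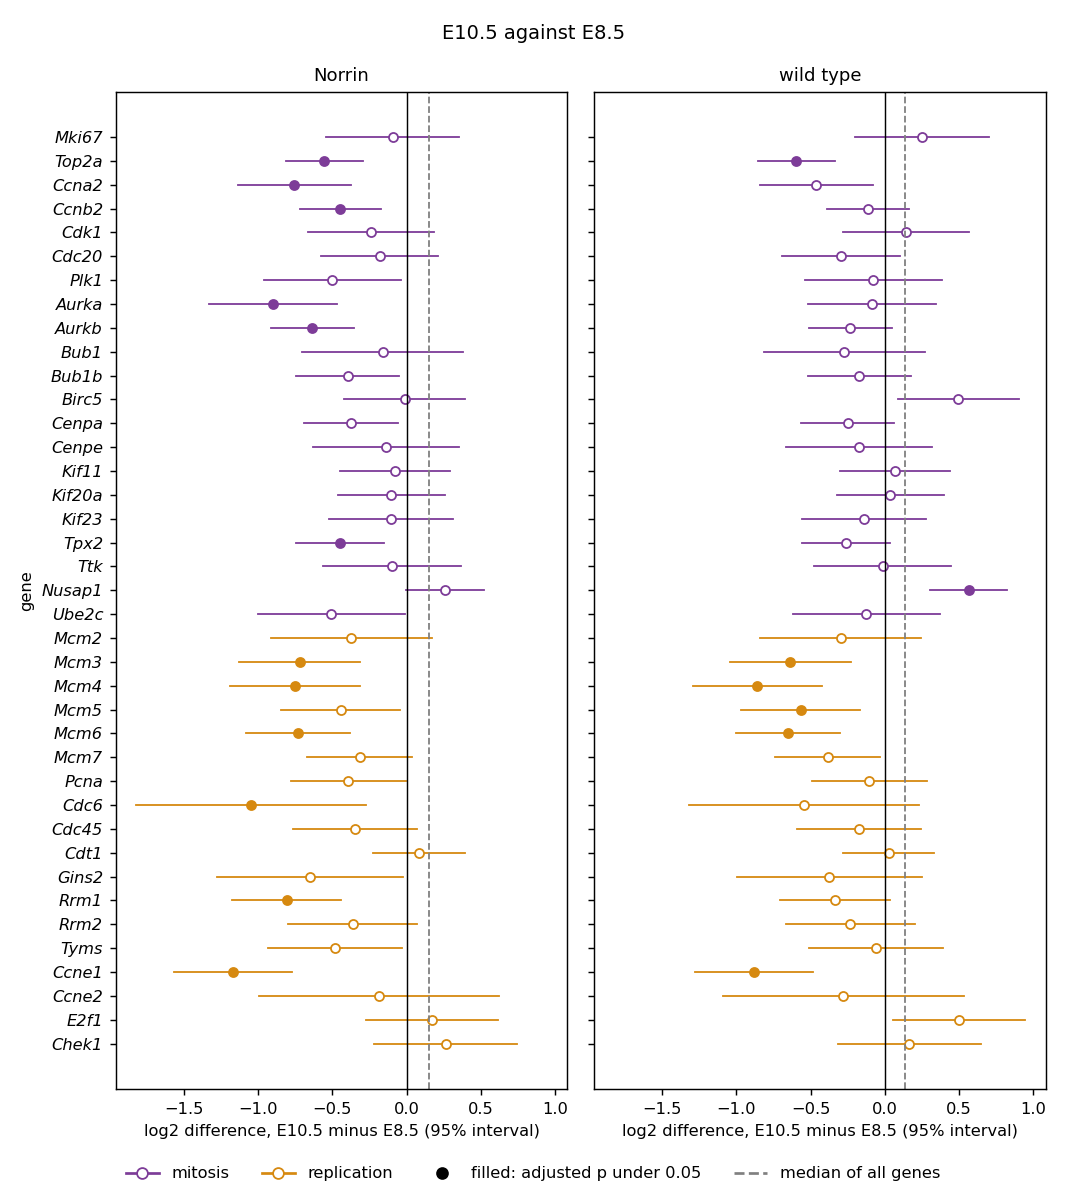
Difference E10.5 minus E8.5 (horizontal axis, log2, with 95% interval) for the 39 genes, in Norrin on the left and in wild type on the right, with mitosis genes in purple and replication genes in orange; filled points passed an adjusted p of 0.05 and the dashed line is the median of all genes. All 12 filled points in Norrin lie left of 0, and 6 of the 7 in wild type do.

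In Norrin yolk sacs 12 genes fell between E8.5 and E10.5 and 0 rose, 6 of each kind, where 9.69% of all genes fell and 28.2% rose (37.9% in all). The mitosis genes were Top2a, Ccna2, Ccnb2, Aurka, Aurkb and Tpx2, a protein that activates Aurora A on the spindle. The replication genes were Mcm3, Mcm4, Mcm6, Cdc6, Rrm1 and Ccne1. The median was -0.24 for mitosis genes and -0.42 for replication genes, against 0.15 for all genes, and 36 of the 39 genes were below that. Top2a, Mcm3, Mcm4, Mcm6 and Ccne1 fell in both genotypes. Ccna2, Ccnb2, Aurka, Aurkb, Tpx2, Cdc6 and Rrm1 passed in Norrin and not in wild type, and Mcm5 in wild type and not in Norrin, but for all of these except Aurka the interaction test was not passed with or without the block, so a difference between genotypes was not shown. Aurka passed it with the block (adjusted p = 0.0430) and not without (0.452).

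Ccne1 had the largest change. It read 9.72, 9.80 and 9.48 in Norrin at E10.5, against 10.74, 11.16 and 10.61 at E8.5, with no overlap. It fell by 1.17 (SE 0.18, adjusted p = 0.000431, 2.25-fold lower), and its other probe set gave -0.98. Cdc6 read 8.81, 8.90 and 9.01 at E10.5, against 10.38, 10.27 and 9.21 at E8.5. The groups did not overlap, though E8.5 replicate 3 was close to the E10.5 values, and it fell by 1.05 (SE 0.36, adjusted p = 0.0357). Aurka read 10.42, 9.92 and 9.88 at E10.5, against 10.91, 10.95 and 11.06 at E8.5. It fell by 0.90 (SE 0.20, adjusted p = 0.00379, 1.87-fold lower), whereas wild type Aurka differed by -0.09 (SE 0.20, adjusted p = 0.771). The other probe set of Aurka, at a mean of 5.37, gave 0.23 in Norrin.

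Rrm1 read 11.02, 10.75 and 10.76 in Norrin at E10.5, against 11.74, 11.44 and 11.78 at E8.5. It fell by 0.81 (SE 0.17, adjusted p = 0.00294), while a probe set of like brightness gave -0.34 and a dim one 1.59. Ccna2 fell by 0.76 (SE 0.18, adjusted p = 0.00527), Mcm4 by 0.75, Mcm6 by 0.73 and Mcm3 by 0.72. Their other probe sets mostly gave smaller falls: -0.47 for Ccna2, -0.30 for Mcm4 and -0.78 to -0.03 for Mcm3. For Mcm6 they gave -0.48 and, on a dim probe set, 0.27. Aurkb fell by 0.63 (SE 0.13, adjusted p = 0.00236), Top2a by 0.56, and Ccnb2 and Tpx2 by 0.45 each. The other probe sets of Top2a gave 0.25 and 0.48, that of Aurkb -0.26, and those of Tpx2 -0.57 to -0.06. Nusap1 differed by 0.26 (SE 0.12, adjusted p = 0.109), and it was the gene whose E10.5 arrays all lay above the E8.5 arrays, where 36.2% of all genes were so placed; 16 genes lay below without overlap, where 15.5% of all genes did. With centred arrays 24 genes fell.

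Other genes of the same steps showed the following between stages. Of 37 other origin and fork genes 16 fell in Norrin and 6 in wild type, and 0 rose in either, with medians of -0.44 and -0.21. Of all genes 9.69% fell and 28.2% rose in Norrin, and 7.12% fell and 25.4% rose in wild type. Dut, which removes dUTP, fell by 0.99 in Norrin (adjusted p = 0.0126) and by 0.94 in wild type (adjusted p = 0.0186), and Orc1 of the origin recognition complex by 0.79 in Norrin (adjusted p = 0.019) and 0.68 in wild type (adjusted p = 0.0413). Of 40 other mitosis genes 8 fell and 1 rose in Norrin, and 1 fell and 1 rose in wild type. CDK inhibitors rose in 5 of 7 in Norrin and 4 of 7 in wild type, among them Cdkn1b (p27) by 1.80 in Norrin (adjusted p = 0.00227) and 1.61 in wild type (adjusted p = 0.00511). Cdkn2c rose by 0.93 in Norrin (adjusted p = 0.000165) and by 1.49 in wild type (adjusted p = 1.13e-05). Ccnd1, which encodes cyclin D1, fell by 0.92 in Norrin (adjusted p = 0.0104) and 0.80 in wild type (adjusted p = 0.0233), and its partner Cdk6 rose by 0.94 in Norrin (adjusted p = 0.00187) and 1.18 in wild type (adjusted p = 0.000557).

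Cell type markers also differed between stages, where 28.2% of all genes were higher at E10.5 and 9.69% lower in Norrin. In wild type 25.4% of all genes were higher and 7.12% lower. Macrophage markers were higher at E10.5 in 5 of 6 in both genotypes, averaging 7.65 to 8.23 at E10.5 and 6.34 to 6.76 at E8.5 in Norrin, and 7.92 to 8.30 at E10.5 and 6.56 to 7.04 at E8.5 in wild type. Erythroid markers were lower at E10.5 in 6 of 7 in Norrin (10.78 to 10.92 at E10.5, 11.62 to 11.91 at E8.5) and in 0 of 7 in wild type (11.43 to 12.24 at E10.5, 11.85 to 11.99 at E8.5). Their part in the stage differences was not tested.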

How the data were processed

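RNA from 12 pools of yolk sacs was labelled and hybridised to Affymetrix whole-genome mouse arrays. The values the authors deposited are log2 intensities of 45101 probe sets. Per the submitters' processing notes RMA was used, with its version not given in the sources used here. RMA subtracts background, quantile-normalizes the arrays of a run and summarises probes by median polish. Precision is limited by how few arrays there are.

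Gene names come from the annotation of the array platform (34945 probe sets name 1 gene, 932 several, 9160 none here, 64 are controls), and symbols were updated through RefSeq gene IDs. Of the 39 genes analysed, 29 had several probe sets. Differences were fitted with limma 3.58.1 in R 4.3.3: 1 mean per group over all 12 arrays, 5 contrasts, two-sided, Benjamini-Hochberg adjustment over 18193 genes, threshold 0.05 (8 residual and 4.17 prior degrees of freedom). All adjusted p-values are from limma. The fit was tested on simulated data, with independent arrays and added effects larger than any Norrin difference among the 39 genes. That test does not cover effects of their size or deviations shared between arrays. Replicates are separate pools.

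The labels give both genotypes of a stage the replicate numbers 1 to 3. Deviations from the group means correlated between arrays of the same number in every pair (0.73, 0.32 and 0.73 at E8.5, 0.51, 0.21 and 0.22 at E10.5). Arrays of unlike number reached 0.30 at E8.5 (Norrin 1 with wild type 2) and 0.16 at E10.5 (Norrin 3 with wild type 2). The lower same-number values are close to these, so pairing by number is not settled. A fit with the number as a block within each stage (4 residual degrees of freedom) is given beside the main fit. It covers Norrin against wild type and the interaction, where it changes a call or count. It is not used between stages, since it takes out the spread between pools, by which a stage difference within a genotype is judged. The pairing comes from these values; the labels name no litter or day.

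Genes described array by array were those with the 3 largest Norrin differences per stage and the 2 most raised and lowered with stage in wild type, for mitosis and replication genes apart. From each other list up to 3 genes past the threshold, or else the largest difference, were named per Norrin contrast. Ccnb2 at E10.5, the array values given for Norrin between stages and the genes named from the other lists between stages were chosen after their values were seen. The genes, lists and tests were chosen with earlier results of these data known. Alternatives were other scalings, probe set choices, array weights, blocks, a filter on dim genes, the stage's 6 arrays alone and leaving out each array. Leaving out both E8.5 arrays numbered 3, and avoiding probe sets marked as shared between transcripts, were added after seeing the data. Listed marker genes without a probe set of their own were not used.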

Additional observations from a re-analysis of the deposited data

How the results depend on the processing

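Under 22 alternative settings, 295 recomputed counts and medians stayed within 1.5 times of the count or within the spread between replicates and 23 did not. These follow, and their cause was not tested unless stated. With the replicate number as a block, 3 of the 39 genes passed for Norrin at E10.5 and 1 for the interaction, and the count at E8.5 stayed 0. The same block gave 15 for wild type and 25 for Norrin between stages. But the pairing was examined only within a stage, and the block takes out the spread between pools. These 2 counts therefore understate the error and are no test. With arrays centred on their median, which by construction removes the shift of all genes, 15 passed between stages in wild type (medians -0.41 for mitosis and -0.60 for replication genes) and 24 in Norrin (-0.53 and -0.71). With array weights, 13 passed for Norrin at E8.5, 4 at E10.5, 10 for the interaction, 22 for wild type between stages and 24 for Norrin between stages. With the mean of all probe sets of a gene, 2 passed in wild type between stages, with a replication median of -0.12 and Top2a at 0.17. Without both E8.5 arrays numbered 3, a setting added after seeing the data, 15 passed there. Without probe sets marked as shared between transcripts, also added later, 4 passed there, and the interaction median of replication genes was -0.33. Chek1 between stages in wild type turned to -0.12 with centred arrays, -0.028 with weights, -0.12 without both arrays numbered 3 and -0.067 without shared probe sets.

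Leaving out each array in turn gave 5 to 13 genes between stages in wild type, the most without wild type E8.5 replicate 3, and mitosis medians of -0.25 to 0.027 there and -0.21 to 0.017 for Norrin at E10.5. Chek1 ran between -0.12 and 0.32 and Cdc6 for Norrin at E8.5 between -0.14 and 0.66, both lowest without wild type E8.5 replicate 3. Of single genes described array by array, 391 values kept their direction and side of the threshold, 23 newly passed it, 4 no longer did and 7 turned. Some of the 391 could not turn, because leaving out an array of the other stage or filtering dim genes leaves a Norrin difference unchanged. The same holds for part of the recomputed medians. A dim probe set, such as that of Tyms (mean 6.67 against a median gene mean of 7.68), limits what a difference near 0 can show.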
